A study of Mus musculus with 12 samples.

Results

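The genes described are those of glucose, glycogen and pyruvate metabolism in the mouse heart: 40 genes chosen by name for glucose transport, glycolysis, lactate and pyruvate handling and glycogen turnover. Of these, 39 had an annotated transcript in the file of every library, and all 39 reached the level at which genes were tested, among 12855 genes held and 11500 tested in all. Gbe1, the glycogen branching enzyme, was not analysed here. RNA-seq of ribosome-depleted total RNA was made from whole hearts of wild-type C57BL/6 mice in 12 libraries, 4 for each of 3 groups treated over 3 days. Control mice received saline in place of both agents. LPS mice received 10 mg/kg of lipopolysaccharide, the bacterial endotoxin that sets off a sepsis-like inflammation, and saline in place of the second agent. LPS+XJDHT mice received the same dose of lipopolysaccharide and XJDHT (Xijiao Dihuang decoction, a traditional herbal formula) at 50 mg/kg per day. Age and sex are not given in the labels, and no group received XJDHT without lipopolysaccharide. Each library has a number of its own in the labels, which do not say that those of a group came from separate mice, so p-values measure the spread between these libraries, which may be technical.

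The heart draws most of its energy from fatty acids and uses glucose, lactate and its own glycogen as further fuels. Glucose enters the cardiomyocyte through the insulin-regulated transporter GLUT4 and the constitutive transporter GLUT1, is trapped by hexokinase, and is either stored as glycogen or split to pyruvate by glycolysis, whose pace is set at phosphofructokinase by the activator fructose 2,6-bisphosphate made by the PFKFB enzymes. Pyruvate is then reduced to lactate or carried into mitochondria and oxidised by the pyruvate dehydrogenase complex, which PDK kinases switch off and PDP phosphatases switch on. Many of these steps have a muscle form and a form used by most other cells, so that the balance of isozymes differs between tissues.

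Expression is in FPKM, fragments per kilobase of transcript and per M sequenced fragments, summed per gene over annotated transcripts. Differences are given as the difference of mean log2(FPKM + 1) ± SE from limma, with p adjusted (Benjamini-Hochberg) over all 11500 genes and a threshold of 0.05, and a fold is the ratio of mean FPKM. The scale with a pseudocount of 1 understates the change of genes at a few FPKM. Positions are in the mouse build mm10 (GRCm38). Each group has n = 4 libraries, values per library are listed in the order of replicates 1 to 4, numbers given here in the order of deposit only to name a library, and ± beside a mean FPKM is the SD.

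Across the libraries, between 73.8 and 77.8 M fragments lay behind the values, and group means differed by less than their SD (76.4 ± 1.35, 75.9 ± 1.49 and 75.8 ± 1.68 M in Control, LPS and LPS+XJDHT). The labelled tissue was checked on 10 cardiomyocyte markers, all held, whose summed level was 22583 to 23754 FPKM in Control, 10766 to 13077 FPKM in LPS and 8753 to 12962 FPKM in LPS+XJDHT. In the comparison of LPS with Control, 7 of the 9 of them tested fell, where 12.1% of all genes did. Of 12 neutrophil markers 9 were held, and their sum was 1.505 to 2.85 FPKM in Control, 81.6 to 120.1 FPKM in LPS and 76.8 to 155 FPKM in LPS+XJDHT. All 6 of them tested passed as higher in LPS, where 26.6% of all genes did. The corresponding sums were 0.584 to 4.68, 26.2 to 33.1 and 19.4 to 38.2 FPKM for monocytes, 145 to 228, 149 to 363 and 161 to 276 FPKM for macrophages, 353 to 430.0, 695 to 828 and 567 to 907 FPKM for fibroblasts, 147 to 178, 153 to 215 and 174 to 207 FPKM for endothelium, and 1275 to 1379, 238 to 803 and 125 to 253 FPKM for erythroid cells. Against Control, 3 of 4 monocyte, 1 of 8 macrophage, 3 of 6 fibroblast and 0 of 7 endothelial markers tested passed as higher in LPS. Of 5 erythroid markers tested, 3 passed as lower in LPS. The neutrophil markers Mpo, Elane and Cxcr2 and all skeletal muscle markers but Tnni2, whose level was at most 1.55 FPKM, were not analysed here. Small intestine markers were at 3.11 to 10.5 FPKM in Control, 12.8 to 18.1 FPKM in LPS and 2.95 to 5.57 FPKM in LPS+XJDHT. Testis markers were at 4.35 to 7.35, 2.79 to 13.2 and 0 to 0.0873 FPKM. Between the treated groups, 4 of 5 intestine and 1 of 5 testis markers tested passed as lower in LPS+XJDHT, where 0.113% of all genes passed. The sum of 4 Y-linked genes was 0.205 FPKM in LPS+XJDHT 2 and 20.4 to 61.9 FPKM in the other libraries, so LPS+XJDHT 2 stands apart, and the counts of genes that passed in either comparison of LPS+XJDHT are also given without it. The part of any of these in the results below was not tested, and in RNA of whole hearts fewer cells of a type and less RNA per cell cannot be told apart.

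In LPS hearts, GLUT1 (Slc2a1), hexokinase 1 (Hk1), the kinase-dominant bifunctional enzyme Pfkfb3, enolase 1 (Eno1), phosphoglycerate kinase (Pgk1), the pyruvate dehydrogenase kinase Pdk4 and the lactate exporter Slc16a3 were higher than in Control, by 1.35-fold for Pgk1 to 6.17-fold for Pfkfb3. GLUT4 (Slc2a4), the muscle phosphofructokinase Pfkm, the heart enzyme Pfkfb2, the muscle forms Pgam2, Eno3 and Pygm, the heart lactate dehydrogenase Ldhb and the glycogen-targeting subunit Ppp1r3c were among those lower, Ppp1r3c the most, by 9.20-fold. In all, 7 of 39 genes rose and 15 fell, where 38.7% of all 11500 genes changed, 26.6% upward and 12.1% downward. The counts by role given below stand beside these same shares of all genes. The share of the 39 that changed was 56.4%, and their median difference was -0.25, beside 0.16 over all genes tested. The groups did not overlap for 23 of the 39 genes, 9 higher and 14 lower, against 37.5% of all genes, 25.3% higher and 12.1% lower. Scaling each library by its median ratio to the others took the median of all genes to 0.0060 and the split of the 39 genes to 5 higher and 20 lower.

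**Figure D1:**
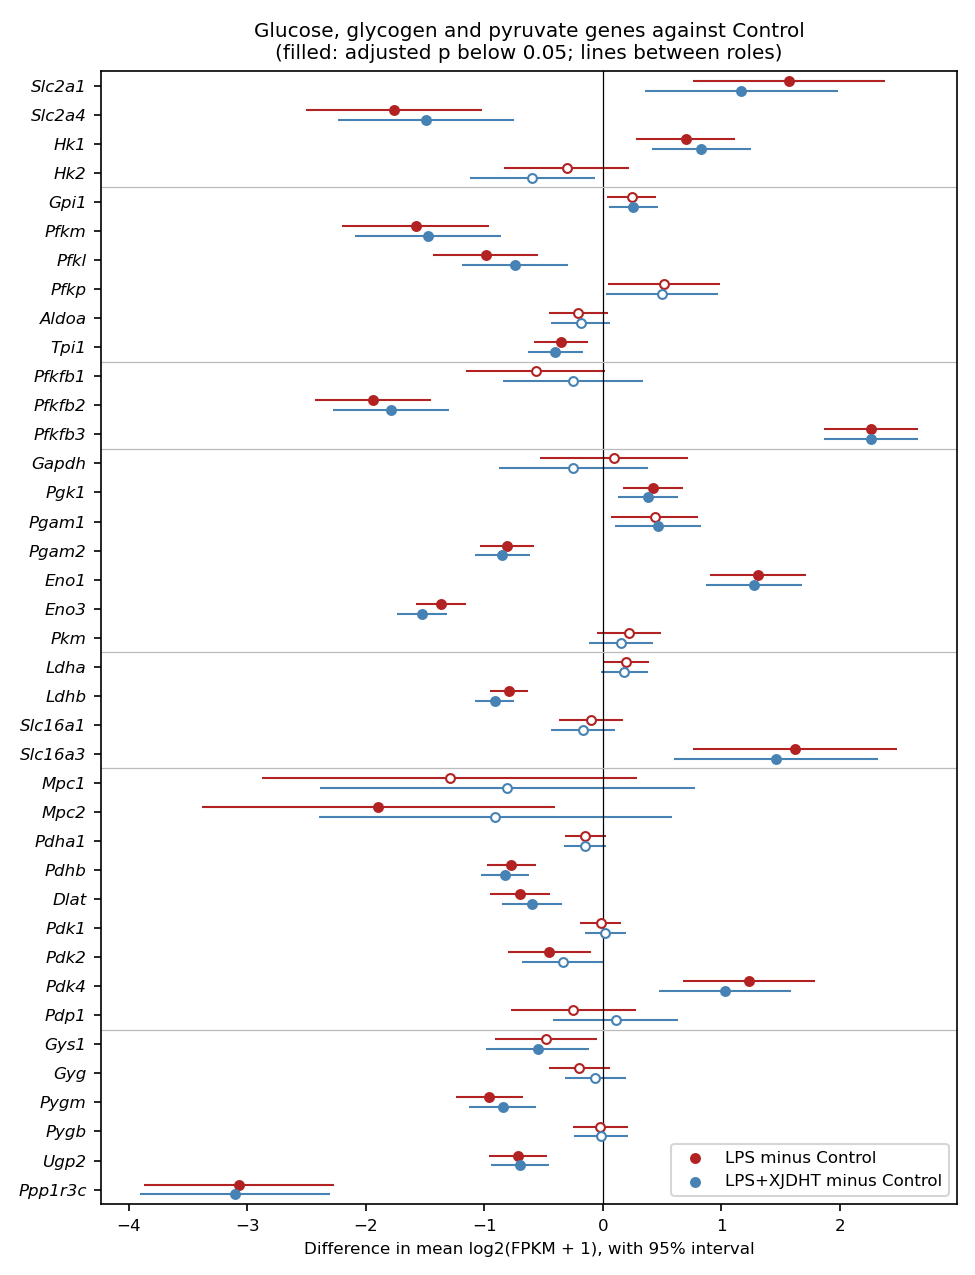
Difference from Control in mean log2(FPKM + 1), with its 95% interval, for the 39 genes in LPS (red) and LPS+XJDHT (blue); filled points passed an adjusted p of 0.05 and grey lines part the roles. In LPS, 7 filled points lie right of 0 and 15 left of it, from 2.26 for Pfkfb3 to -3.07 for Ppp1r3c.

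The promoters of the 2 genes that rose most and the 2 that fell most are shown because these genes mark the ends of that range. Each is a RefSeq window of 300 bases from 250 before to 50 after a transcription start of the gene in GRCm38.p6. That start can lie inside the annotated gene, as for Pfkfb3 and Pfkfb2. Windows were matched to the start of the gene's most abundant transcript by mean FPKM over the 12 libraries. These were Pfkfb3-219, annotated as a retained intron, Slc16a3-202, Ppp1r3c-201 and Pfkfb2-203. The coding Pfkfb3-206 exceeded Pfkfb3-219 in Control (mean 1.35 against 0.524 FPKM) and in LPS+XJDHT (9.84 against 5.15 FPKM). The windows are read 5′ to 3′ on the gene's strand, with capitals on every match of ACGTG or GCGTG or CACGTG on either strand. ACGTG and GCGTG are the core letters of hypoxia response elements, and CACGTG is the E-box, which itself contains ACGTG on both strands. The windows are chr2:11502041-11502340 (minus strand) for Pfkfb3, chr11:120948817-120949116 (plus strand) for Slc16a3, chr19:36736555-36736854 (minus strand) for Ppp1r3c and chr1:130715772-130716071 (minus strand) for Pfkfb2.
Pfkfb3 promoter: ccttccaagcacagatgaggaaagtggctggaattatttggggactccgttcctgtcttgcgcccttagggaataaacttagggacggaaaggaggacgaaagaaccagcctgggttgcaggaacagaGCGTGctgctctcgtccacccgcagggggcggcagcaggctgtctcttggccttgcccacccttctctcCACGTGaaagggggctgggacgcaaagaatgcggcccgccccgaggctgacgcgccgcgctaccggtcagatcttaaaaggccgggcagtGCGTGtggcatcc
Slc16a3 promoter: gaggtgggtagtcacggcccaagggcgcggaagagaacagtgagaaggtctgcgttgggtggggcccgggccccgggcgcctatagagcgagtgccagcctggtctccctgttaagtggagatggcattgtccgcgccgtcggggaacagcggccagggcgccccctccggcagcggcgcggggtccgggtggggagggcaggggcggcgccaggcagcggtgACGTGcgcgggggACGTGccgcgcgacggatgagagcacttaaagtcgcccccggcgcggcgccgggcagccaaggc
Ppp1r3c promoter: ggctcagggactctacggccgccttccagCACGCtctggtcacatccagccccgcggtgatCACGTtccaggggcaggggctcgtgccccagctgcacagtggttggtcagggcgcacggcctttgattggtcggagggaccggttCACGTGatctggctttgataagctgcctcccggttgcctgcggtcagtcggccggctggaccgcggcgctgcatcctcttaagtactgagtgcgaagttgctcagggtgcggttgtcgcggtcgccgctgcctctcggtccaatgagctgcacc
Pfkfb2 promoter: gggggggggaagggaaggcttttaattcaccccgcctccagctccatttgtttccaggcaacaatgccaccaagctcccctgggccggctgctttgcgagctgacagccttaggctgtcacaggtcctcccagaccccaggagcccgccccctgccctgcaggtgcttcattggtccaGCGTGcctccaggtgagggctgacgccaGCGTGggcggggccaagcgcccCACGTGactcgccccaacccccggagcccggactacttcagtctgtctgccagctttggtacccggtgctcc
Capitals stand in all 4 windows, those of the genes that rose and those of the genes that fell alike. Among the 37 genes with a window in the RefSeq table, 29 (78.4%) held ACGTG or GCGTG, as did 43.8% of all 32851 windows of that length. The count was 7 of 7 for genes higher in LPS, 10 of 14 for genes lower and 12 of 16 for genes that did not pass. CACGTG was in 6 of the 37 windows (16.2%) and in 7.15% of all windows. The 37 windows had a median GC content of 62.0% against 52.7% for all windows, and the letters searched are rich in G and C.

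Glucose uptake and phosphorylation comprised 4 genes, of which 2 rose and 1 fell in LPS. Slc2a1 (chr4:119108711-119137983, plus strand), which encodes GLUT1, was at 3.71, 4.17, 4.57 and 4.25 FPKM in Control, 16.5, 27.4, 8.26 and 11.0 FPKM in LPS and 15.1, 12.5, 4.55 and 14.2 FPKM in LPS+XJDHT. All LPS libraries lay above all Control libraries, whereas LPS+XJDHT 3 lay within the Control range. Its mean was 3.78-fold higher in LPS than in Control (1.57 ± 0.37, adjusted p = 0.0059). Slc2a4 (chr11:69942539-69948188, minus strand), which encodes GLUT4, moved the other way, with 27.7, 31.7, 46.6 and 46.1 FPKM in Control, 9.07, 11.98, 8.82 and 11.4 FPKM in LPS and 6.89, 8.47, 26.9 and 15.0 FPKM in LPS+XJDHT. Every LPS and LPS+XJDHT library lay below the lowest Control library, LPS+XJDHT 3 least far below. The mean was 3.69-fold lower in LPS (-1.76 ± 0.34, adjusted p = 0.0018).

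Hk1 (chr10:62268855-62379908, minus strand), the hexokinase found in most tissues, was measured at 22.0, 15.0, 26.4 and 24.8 FPKM in Control, 38.0, 38.5, 31.4 and 35.3 FPKM in LPS and 36.5, 55.4, 31.8 and 36.4 FPKM in LPS+XJDHT. The Control libraries lay below all 8 others, and the mean rose 1.62-fold in LPS (0.70 ± 0.19, adjusted p = 0.013). With median-ratio scaling the difference was 0.51 (adjusted p = 0.0502). Hk2 (chr6:82725025-82774454, minus strand), the insulin-responsive hexokinase of muscle, was the more abundant of the pair in Control, with 44.6, 50.8, 52.7 and 57.5 FPKM in Control, 52.4, 53.4, 32.3 and 31.9 FPKM in LPS and 32.1, 55.1, 25.8 and 27.6 FPKM in LPS+XJDHT. LPS 1, LPS 2 and LPS+XJDHT 2 lay among the Control libraries and the others below them, and Hk2 did not pass in LPS (-0.30 ± 0.24, adjusted p = 0.35).

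Of the 6 genes of upper glycolysis, from glucose 6-phosphate to the triose phosphates, 0 rose and 3 fell in LPS. Pfkm (chr15:98092589-98132451, plus strand), the muscle phosphofructokinase and main control point of glycolysis, was at 99.4, 201, 171 and 113 FPKM in Control, 44.6, 34.2, 69.2 and 43.2 FPKM in LPS and 39.7, 73.0, 55.8 and 37.8 FPKM in LPS+XJDHT. Its Control libraries spread over a wide range, yet the lowest of them stood above every treated library. The mean was 3.06-fold lower in LPS (-1.58 ± 0.28, adjusted p = 0.0011). Pfkl (chr10:77986947-78010083, minus strand), the liver form, was at 25.3, 27.1, 30.1 and 31.0 FPKM in Control, 11.5, 10.3, 17.7 and 16.8 FPKM in LPS and 20.3, 21.2, 11.9 and 14.5 FPKM in LPS+XJDHT, again without overlap. It fell 2.01-fold (-0.99 ± 0.20, adjusted p = 0.0027). Pfkp, the platelet form, was at 23.1 ± 0.831 FPKM in Control and 34.0 ± 7.20 FPKM in LPS and did not pass (0.52 ± 0.22, adjusted p = 0.08). It passed by limma-voom on recovered fragments, at 0.82 (adjusted p = 0.0091), with the compared groups alone (adjusted p = 0.028) and without LPS 3 (adjusted p = 0.031) or LPS+XJDHT 3 (adjusted p = 0.022).

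Aldoa (chr7:126795234-126800751, minus strand), muscle aldolase and the most abundant of the 39 genes in every group, was at 797, 782, 948 and 953 FPKM in Control, 763, 599, 861 and 808 FPKM in LPS and 734, 844, 707 and 765 FPKM in LPS+XJDHT. The groups overlapped and the difference did not pass (-0.21 ± 0.12, adjusted p = 0.18). With median-ratio scaling Aldoa passed, at -0.41 (adjusted p = 0.010) in LPS and -0.43 (adjusted p = 0.0078) in LPS+XJDHT. Tpi1, triose phosphate isomerase, fell from 243 ± 19.7 FPKM in Control to 191 ± 28.5 FPKM in LPS (-0.35 ± 0.11, adjusted p = 0.02), with LPS 3 just above the lowest Control library. The Tpi1 call was lost without Control 1, LPS 1 or LPS 2 (adjusted p = 0.057, 0.056 and 0.052). Gpi1, glucose phosphate isomerase, was at 132 ± 8.02 and 157 ± 20.2 FPKM and did not pass (0.24 ± 0.09, adjusted p = 0.058). It passed in 3 alternative settings, among them without LPS 2, at 0.34 (adjusted p = 0.0022).

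The PFKFB enzymes make and degrade fructose 2,6-bisphosphate, the strongest activator of phosphofructokinase, and the 3 forms measured parted ways. Pfkfb3 (chr2:11471433-11554077, minus strand), the inducible form with high kinase activity, was at 1.82, 2.06, 2.89 and 3.53 FPKM in Control, 18.03, 15.1, 15.7 and 14.8 FPKM in LPS and 13.8, 13.4, 22.2 and 15.3 FPKM in LPS+XJDHT. No library of either treated group came near the Control range. Its mean was 6.17-fold higher in LPS (2.26 ± 0.18, adjusted p = 4.6e-06), and it rose from rank 38 to rank 30 of the 39 genes by mean level. Pfkfb2 (chr1:130689182-130729253, minus strand), the heart form that insulin and adrenaline signals activate, was at 17.5, 18.7, 21.5 and 21.7 FPKM in Control, 4.05, 2.28, 6.86 and 5.58 FPKM in LPS and 4.18, 5.58, 5.46 and 4.91 FPKM in LPS+XJDHT. Its groups were as clearly parted in the opposite direction, with a mean 4.23-fold lower in LPS (-1.94 ± 0.22, adjusted p = 5.9e-05). Pfkfb1, the liver and muscle form, was at 4.20 ± 0.994 and 2.70 ± 1.57 FPKM and did not pass (-0.57 ± 0.27, adjusted p = 0.12), except without LPS 4, where the difference was -0.80 (adjusted p = 0.024).

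The Pfkfb3 result in LPS depended on which transcripts were summed. Pfkfb3-219, annotated as a retained intron, was at 0.370, 0.110, 0.681 and 0.934 FPKM in Control, 11.8, 13.5, 5.96 and 10.7 FPKM in LPS and 1.79, 5.02, 10.9 and 2.95 FPKM in LPS+XJDHT. The protein-coding Pfkfb3-206 was at 0.836, 1.92, 0.161 and 2.50 FPKM in Control, 5.46, 0.377, 0.931 and 2.79 FPKM in LPS and 11.5, 7.13, 9.90 and 10.8 FPKM in LPS+XJDHT. In LPS, Pfkfb3-219 passed (2.89 ± 0.40, adjusted p = 4.8e-04) and Pfkfb3-206 did not (0.40 ± 0.47, adjusted p = 0.59), both tested with limma over 18635 transcripts. On protein-coding transcripts alone, a setting chosen after seeing the data, the gene's difference in LPS was 0.91 and did not pass (adjusted p = 0.060), while in LPS+XJDHT it was 1.98 (adjusted p = 0.0011). Between LPS+XJDHT and LPS, Pfkfb3-206 was higher in every LPS+XJDHT library, with a difference of 1.91 (95% interval 0.88 to 2.95), but its p of 0.0018 became 0.61 after adjustment. The coding Pfkfb3-203, at 4.73, 0, 0 and 3.495 FPKM, and Pfkfb3-211 and Pfkfb3-217 were listed for LPS+XJDHT only and left out. The list of Pfkfb3 transcripts thus differed along with the treatment, and its part in the contrast between transcripts was not tested. How the authors' counting divided fragments between overlapping transcripts is not given in the sources used here.

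Of the 7 genes of lower glycolysis, from triose phosphate to pyruvate, 2 rose and 2 fell in LPS. Eno1 (chr4:150236721-150248879, plus strand), the enolase of most cells, was at 33.9, 25.3, 32.0 and 24.9 FPKM in Control, 81.1, 77.2, 54.5 and 82.9 FPKM in LPS and 67.2, 99.9, 57.9 and 65.2 FPKM in LPS+XJDHT. Every treated library exceeded every Control library, and the mean was 2.55-fold higher in LPS (1.31 ± 0.19, adjusted p = 2.3e-04). Eno3 (chr11:70657202-70662513, plus strand), the enolase of striated muscle, was at 516, 468, 559.6 and 522 FPKM in Control, 179, 223, 200.4 and 196 FPKM in LPS and 207, 183, 167 and 160.1 FPKM in LPS+XJDHT. Its treated libraries all stood far below Control, with a mean 2.59-fold lower in LPS (-1.37 ± 0.10, adjusted p = 1.9e-06), the smallest adjusted p of the 39 genes in that comparison. Eno1b, a near-identical copy of Eno1, was at 3.16 FPKM in Control, 7.41 FPKM in LPS and 7.06 FPKM in LPS+XJDHT, so the division of fragments between the copies is uncertain.

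Pgam2 (chr11:5801640-5803733, minus strand), the muscle phosphoglycerate mutase, was at 291, 314, 328 and 329 FPKM in Control, 163, 151, 207 and 204 FPKM in LPS and 185, 186, 166 and 163 FPKM in LPS+XJDHT. The groups did not overlap, and the mean fell 1.74-fold in LPS (-0.81 ± 0.11, adjusted p = 1.4e-04). Pgam1, the form of most other tissues, was at 34.1 ± 3.15 FPKM in Control and 46.4 ± 1.14 FPKM in LPS, with no overlap, and did not pass (0.44 ± 0.17, adjusted p = 0.058). It passed in 4 alternative settings, among them without LPS+XJDHT 2, which shares in the estimate of the spread (adjusted p = 0.0016). Pgk1, phosphoglycerate kinase, rose from 164 ± 1.48 to 222 ± 26.0 FPKM (0.43 ± 0.12, adjusted p = 0.012), and its difference was 0.23 (adjusted p = 0.17) with median-ratio scaling. Gapdh was represented by a single transcript with a retained intron, at 4.30 ± 1.04 and 4.71 ± 1.31 FPKM (0.09 ± 0.29, adjusted p = 0.82), and its coding transcripts were not used here. Glycolytic genes such as Pgk1, Pgam1, Ldha and Aldoa have processed pseudogenes with which the authors' counting could have shared fragments.

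**Figure D2:**
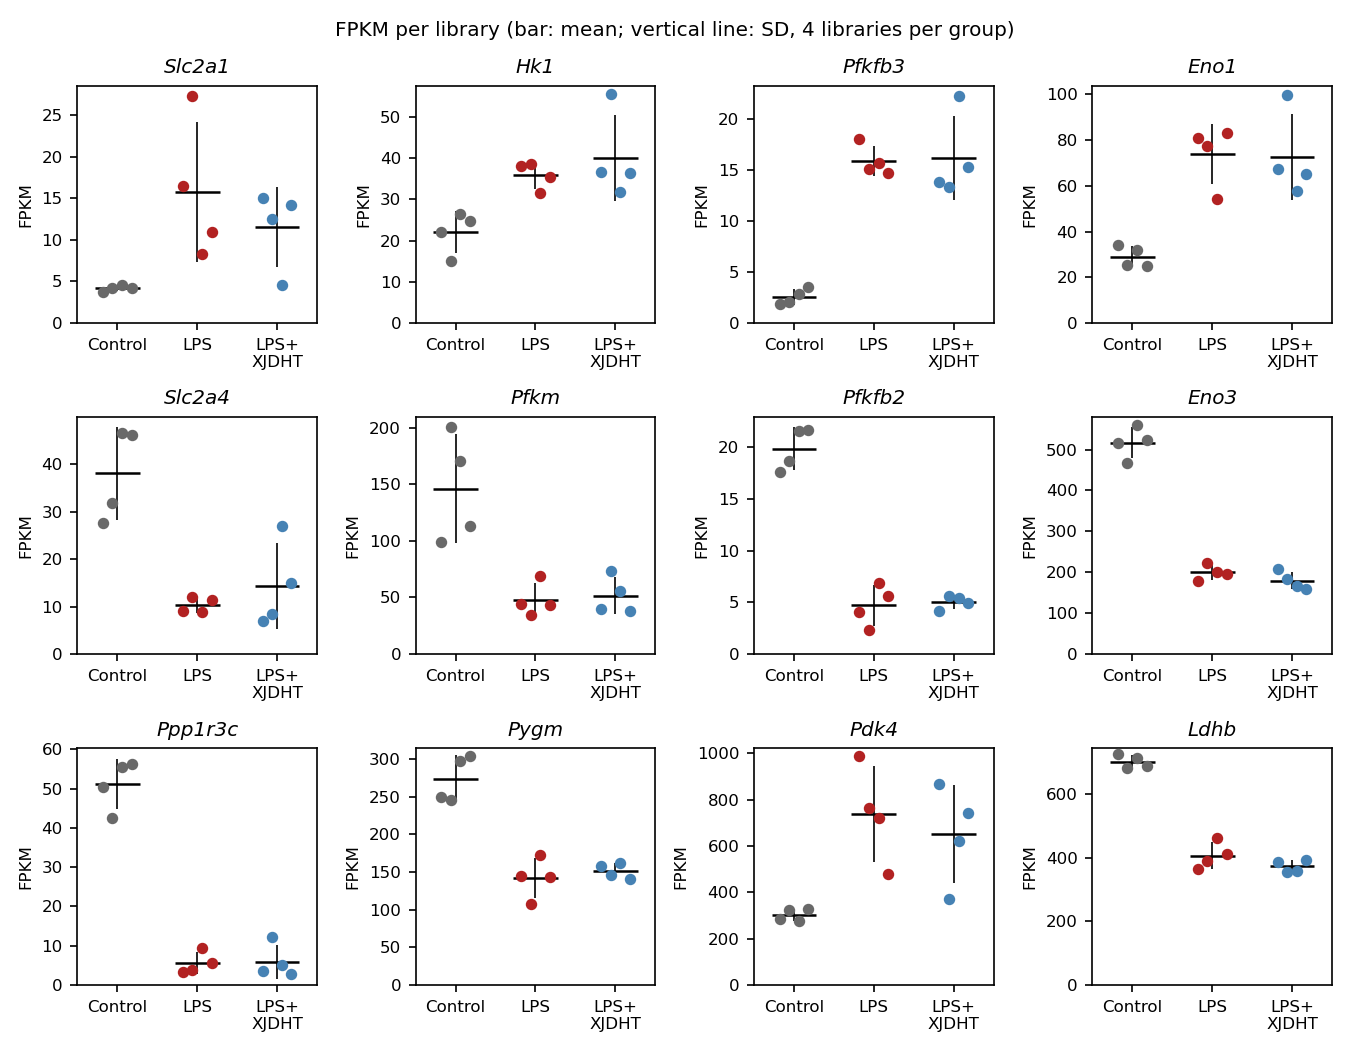
FPKM of 12 genes in each library (points, 4 per group), with the group mean (bar) and SD (vertical line); each panel has its own axis from 0. The Control points stand apart from the LPS points in all 12 panels, and so do the LPS+XJDHT points except for Slc2a1, where LPS+XJDHT 3 lies within the Control range.

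Pkm (chr9:59656368-59679375, plus strand), pyruvate kinase of muscle and most other cells, was at 381, 369, 389 and 389 FPKM in Control, 453, 527, 353 and 462 FPKM in LPS and 456, 499.9, 361 and 397 FPKM in LPS+XJDHT. Its total overlapped between groups and did not pass in LPS (0.22 ± 0.12, adjusted p = 0.19), except without LPS 3, where the difference was 0.33 (adjusted p = 0.030). The gene holds a pair of mutually exclusive exons of equal length. The upstream exon gives the M1 form, typical of adult heart and skeletal muscle, and the downstream exon gives the M2 form, typical of proliferating and immune cells. Both are printed here because the transcripts that hold them behaved differently, in GRCm38 from the GENCODE transcript sequences, on the plus strand at chr9:59675029-59675195 and chr9:59675568-59675734. Capitals mark the 64 of 167 positions at which they differ, and 61.7% of positions are the same.
Pkm M1 exon: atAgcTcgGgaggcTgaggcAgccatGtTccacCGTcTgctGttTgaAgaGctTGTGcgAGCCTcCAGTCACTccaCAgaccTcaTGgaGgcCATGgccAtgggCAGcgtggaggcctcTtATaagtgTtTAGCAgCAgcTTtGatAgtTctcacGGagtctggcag
Pkm M2 exon: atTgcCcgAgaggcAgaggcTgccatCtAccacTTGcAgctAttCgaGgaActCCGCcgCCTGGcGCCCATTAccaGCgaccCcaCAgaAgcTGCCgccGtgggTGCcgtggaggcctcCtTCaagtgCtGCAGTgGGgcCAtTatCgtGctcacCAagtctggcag
Fragments that cover these positions differ between the forms. The M1 transcript Pkm-202 was at 293, 281, 300.0 and 298 FPKM in Control, 316, 380.4, 215 and 222 FPKM in LPS and 215, 302, 186 and 227 FPKM in LPS+XJDHT. It overlapped between groups and did not pass (-0.09 ± 0.19, adjusted p = 0.77). The M2 transcript Pkm-201 was at 52.6, 52.2, 50.4 and 53.5 FPKM in Control, 88.9, 98.1, 89.3 and 181 FPKM in LPS and 177, 149.6, 131 and 110.5 FPKM in LPS+XJDHT, above Control in all 8 treated libraries, and passed in LPS (1.05 ± 0.21, adjusted p = 0.0046) and in LPS+XJDHT (1.41 ± 0.21, adjusted p = 8.3e-04).

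The M1 share of the 2 transcripts was 84.8, 84.3, 85.6 and 84.8% in the Control libraries, 78.0, 79.5, 70.7 and 55.1% in LPS and 54.9, 66.9, 58.6 and 67.2% in LPS+XJDHT. Control was tightly grouped and above every treated library, and the LPS libraries were the most scattered. The mean share was 84.9 ± 0.543%, 70.8 ± 11.2% and 61.9 ± 6.13% (SD, n = 4). An exact two-sided permutation test gave p = 0.0286 for either treated group against Control, the smallest that 4 against 4 allows, and 0.0429 after adjustment over 3 comparisons. LPS+XJDHT differed from LPS by -8.91 points (exact permutation p = 0.20). Without LPS 4, the difference of LPS from Control was -8.80 points in place of -14.0, and that of LPS+XJDHT from LPS was -14.2 points. For the latter the exact permutation p was 0.0286, the smallest that 4 against 3 allows. That p was not adjusted and comes from 1 of 8 runs that each left out 1 library. LPS 4 was the LPS library that lay within the LPS+XJDHT range.

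**Figure D3:**
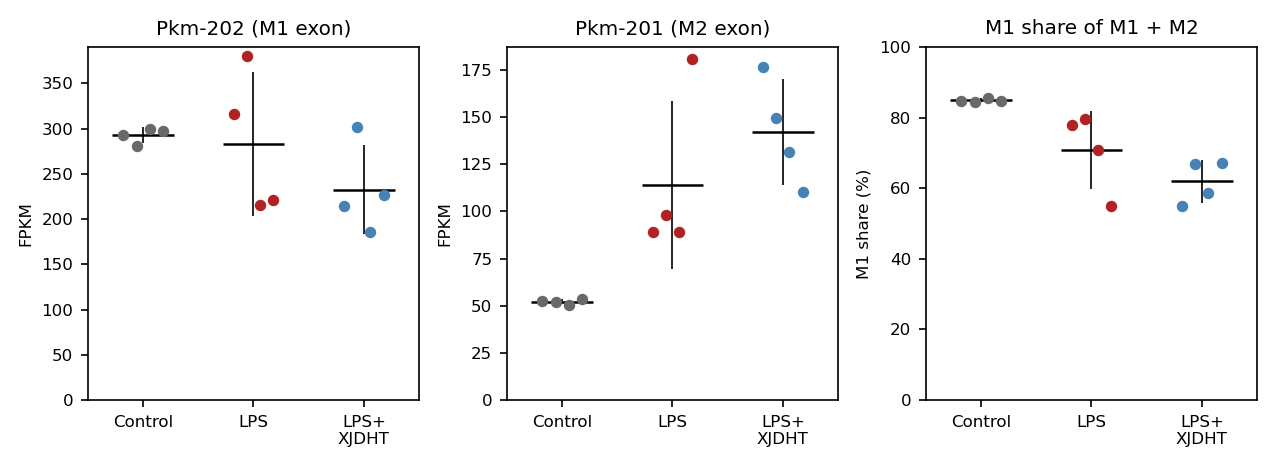
FPKM of the M1 transcript Pkm-202 (left) and the M2 transcript Pkm-201 (middle), and the M1 share of their sum in percent (right), per library (points) with mean (bar) and SD (line). The M2 transcript is higher in all treated libraries than in Control, while the M1 transcript overlaps, and the share falls from 84.9% in Control to 70.8% in LPS and 61.9% in LPS+XJDHT.

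Lactate production and transport had 4 genes, of which 1 rose and 1 fell in LPS. Ldhb (chr6:142490249-142507957, minus strand), the heart subunit of lactate dehydrogenase, which favours the oxidation of lactate, was at 727, 683, 713 and 689.5 FPKM in Control, 364, 389, 462 and 413 FPKM in LPS and 387, 354, 359 and 392 FPKM in LPS+XJDHT. The groups were far apart relative to their spread, and the mean was 1.73-fold lower in LPS (-0.79 ± 0.07, adjusted p = 1.5e-05). Ldha, the muscle subunit, was at 328 ± 23.4 FPKM in Control and 374 ± 17.6 FPKM in LPS, without overlap, and did not pass (0.19 ± 0.09, adjusted p = 0.11). It passed without LPS+XJDHT 2 (adjusted p = 0.043) and by limma-voom on recovered fragments (adjusted p = 0.032) and had a difference of -0.0078 with median-ratio scaling. Slc16a3 (chr11:120948480-120960868, plus strand), the lactate exporter MCT4 of glycolytic cells, was at 0.675, 2.55, 0.676 and 0.898 FPKM in Control, 5.58, 13.0, 2.42 and 4.45 FPKM in LPS and 4.17, 6.73, 3.16 and 5.55 FPKM in LPS+XJDHT. Control 2 lay above LPS 3 and below the other treated libraries. The mean was 5.30-fold higher in LPS (1.63 ± 0.39, adjusted p = 0.0068), from a level near the limit of 1 FPKM. Slc16a1, the lactate transporter MCT1 that serves uptake in the heart, was at 53.5 ± 5.86 and 49.7 ± 5.22 FPKM and did not pass (-0.10 ± 0.12, adjusted p = 0.55).

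Pyruvate entry into mitochondria and the pyruvate dehydrogenase complex had 9 genes, of which 1 rose and 4 fell in LPS. Pdk4 (chr6:5483351-5496309, minus strand), the kinase that inactivates the complex and is strongly induced by fasting in the heart, was at 287, 322, 277 and 330.2 FPKM in Control, 988, 766, 721 and 478 FPKM in LPS and 869.6, 372, 620.5 and 742 FPKM in LPS+XJDHT. All treated libraries were above Control, LPS+XJDHT 2 by the least. The mean rose 2.43-fold in LPS (1.23 ± 0.25, adjusted p = 0.0027), from rank 9 to rank 2 of the 39 genes. Pdk2, the kinase form of most tissues, was at 105 ± 10.1 and 78.2 ± 19.4 FPKM, and its fall (-0.45 ± 0.16, adjusted p = 0.042) did not pass in 13 of 23 alternative settings, 10 of which left out 1 library, among them LPS 2 (-0.27, adjusted p = 0.051). Pdk1 was at 32.3 ± 2.17 and 31.9 ± 2.30 FPKM and the phosphatase Pdp1 at 6.33 ± 0.820 and 5.54 ± 2.66 FPKM, and neither passed in LPS (differences -0.02 and -0.25). With median-ratio scaling Pdk1 passed at -0.21 (adjusted p = 0.027).

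Among the subunits of the complex, Pdhb (chr14:8165996-8173025, minus strand), the beta subunit of its pyruvate-oxidising enzyme, was at 349.8, 352, 345 and 343 FPKM in Control, 192, 184, 205 and 235 FPKM in LPS and 225, 206, 177 and 179 FPKM in LPS+XJDHT. Control values lay within a narrow band above all treated libraries. It fell 1.70-fold in LPS (-0.77 ± 0.09, adjusted p = 8.4e-05). Dlat (chr9:50634633-50659780, minus strand), the acetyl-transferring core, was at 77.0, 74.1, 85.0 and 88.1 FPKM in Control, 45.7, 41.7, 52.0 and 60.4 FPKM in LPS and 56.4, 57.7, 48.8 and 49.7 FPKM in LPS+XJDHT, also without overlap. Its mean was 1.62-fold lower (-0.70 ± 0.12, adjusted p = 6.6e-04). Pdha1, the alpha subunit, was at 393 ± 15.8 and 356 ± 38.9 FPKM and did not pass (-0.15 ± 0.08, adjusted p = 0.16), whereas with median-ratio scaling it passed at -0.35 (adjusted p = 0.0043).

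Mpc2 (chr1:165460637-165481214, plus strand), which with Mpc1 forms the mitochondrial pyruvate carrier, was at 105, 117, 154 and 155 FPKM in Control, 45.3, 4.62, 102 and 57.8 FPKM in LPS and 65.4, 89.1, 54.0 and 73.2 FPKM in LPS+XJDHT. The treated libraries were all below Control, LPS 2 by far the most. Its difference in LPS passed (-1.89 ± 0.68, adjusted p = 0.045) and was -1.01 (adjusted p = 0.013) without LPS 2. The call was lost in 12 of 23 alternative settings, 9 of which left out 1 of the other libraries, at adjusted p up to 0.092. Mpc1 was at 58.2 ± 4.07 FPKM in Control and 35.7 ± 29.1 FPKM in LPS, had the widest relative spread of the 39 genes in LPS, and did not pass (-1.29 ± 0.72, adjusted p = 0.18). Its libraries fell into high and low values within both treated groups, with 3.57 FPKM in LPS 1, 19.0 FPKM in LPS 2, 15.0 FPKM in LPS+XJDHT 2 and 23.4 FPKM in LPS+XJDHT 3 against 54.9 to 64.6 FPKM in the other treated libraries. The transcript that carried most of Mpc1 in Control, Mpc1-208, was at 53.8, 46.1, 50.3 and 45.4 FPKM in Control, 0, 0.748, 0.782 and 54.1 FPKM in LPS and 34.5, 0.767, 17.6 and 0.295 FPKM in LPS+XJDHT. It was thus near 0 also in libraries with a high sum, such as LPS 3 and LPS+XJDHT 4.

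Of the 6 genes of glycogen metabolism, 0 rose and 3 fell in LPS. Ppp1r3c (chr19:36731731-36736653, minus strand), which brings protein phosphatase 1 to glycogen and so favours glycogen synthesis, was at 50.4, 42.5, 55.6 and 56.3 FPKM in Control, 3.35, 3.76, 9.45 and 5.69 FPKM in LPS and 3.58, 12.1, 4.998 and 2.69 FPKM in LPS+XJDHT. The lowest Control library was several times the highest treated library, LPS+XJDHT 2. The mean was 9.20-fold lower in LPS (-3.07 ± 0.37, adjusted p = 7.5e-05), and the gene went from rank 24 to rank 35 of the 39. Pygm (chr19:6384399-6398459, plus strand), the muscle glycogen phosphorylase that releases glucose units from glycogen, was at 249.9, 246, 298 and 304 FPKM in Control, 144, 108, 173 and 143 FPKM in LPS and 158, 146, 162 and 141 FPKM in LPS+XJDHT. The groups did not overlap, and the mean fell 1.93-fold (-0.96 ± 0.13, adjusted p = 1.8e-04). Ugp2 (chr11:21321138-21371201, minus strand), which makes the UDP-glucose used for glycogen, was at 156, 125, 131 and 143 FPKM in Control, 85.0, 73.1, 82.4 and 96.3 FPKM in LPS and 81.3, 100.3, 74.4 and 84.7 FPKM in LPS+XJDHT, again without overlap, and was 1.65-fold lower (-0.71 ± 0.11, adjusted p = 4.9e-04).

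Of the 2 main transcripts of Ugp2, 1 passed. Ugp2-202 went from 82.8 ± 7.90 FPKM in Control to 36.5 ± 11.2 FPKM in LPS (-1.20 ± 0.18, adjusted p = 7.8e-04), and Ugp2-201 was at 53.9 ± 5.67 and 47.1 ± 6.66 FPKM and did not pass (-0.20 ± 0.12, adjusted p = 0.27). The difference between these transcripts was not tested. Gys1, muscle glycogen synthase, was at 29.5 ± 3.70 and 21.1 ± 4.46 FPKM, without overlap, and did not pass (-0.48 ± 0.20, adjusted p = 0.076), but passed without LPS 3 (adjusted p = 0.048) or LPS+XJDHT 4 (adjusted p = 0.030). It also passed with median-ratio scaling, at -0.67 (adjusted p = 0.013), and without mitochondrial and haemoglobin genes, at -0.56 (adjusted p = 0.040). Gyg, the glycogenin that primes the chain, and Pygb, the brain phosphorylase, were at 51.4 ± 7.83 and 163 ± 4.05 FPKM in Control and 44.5 ± 5.24 and 162 ± 24.9 FPKM in LPS and did not pass (-0.20 and -0.02). With median-ratio scaling Gyg passed, at -0.40 (adjusted p = 0.017).

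Since FPKM is per length, the forms of an enzyme can be set side by side as shares of their summed level, given as a description without a test. Slc2a4 made up 89.8 ± 1.77% in Control, 42.1 ± 10.7% in LPS and 52.2 ± 23.7% in LPS+XJDHT of the 2 glucose transporters. Pfkm made up 72.8 ± 6.55% in Control, 49.1 ± 9.63% in LPS and 50.03 ± 9.83% in LPS+XJDHT of the 3 phosphofructokinases, and Pfkp, which made up 12.3 ± 3.28% in Control, 36.3 ± 10.8% in LPS and 33.4 ± 7.29% in LPS+XJDHT, took the larger part of the remainder in treated hearts. Eno3 made up 94.7 ± 0.673% in Control, 73.0 ± 4.40% in LPS and 71.4 ± 4.82% in LPS+XJDHT of the enolases Eno1 and Eno3. For these 3 families the muscle form had a lower share in every LPS library than in any Control library. The same held for Hk2 among the 2 hexokinases (70.2 ± 4.91% in Control, 53.6 ± 5.31% in LPS and 46.1 ± 2.91% in LPS+XJDHT) and for Pgam2 among the mutases (90.2 ± 0.879% in Control, 79.4 ± 2.82% in LPS and 78.4 ± 4.62% in LPS+XJDHT). Ldhb made up 68.2 ± 1.50% in Control, 52.0 ± 1.92% in LPS and 50.1 ± 3.96% in LPS+XJDHT of the lactate dehydrogenases, Ldha the remainder. Pygm made up 62.6 ± 3.12% in Control, 46.6 ± 1.26% in LPS and 48.5 ± 1.93% in LPS+XJDHT of the phosphorylases Pygm and Pygb, and there too the Control and LPS libraries did not overlap. The share of Slc2a4 was the most scattered with XJDHT, from 31.3 to 85.5%.

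**Figure D4:**
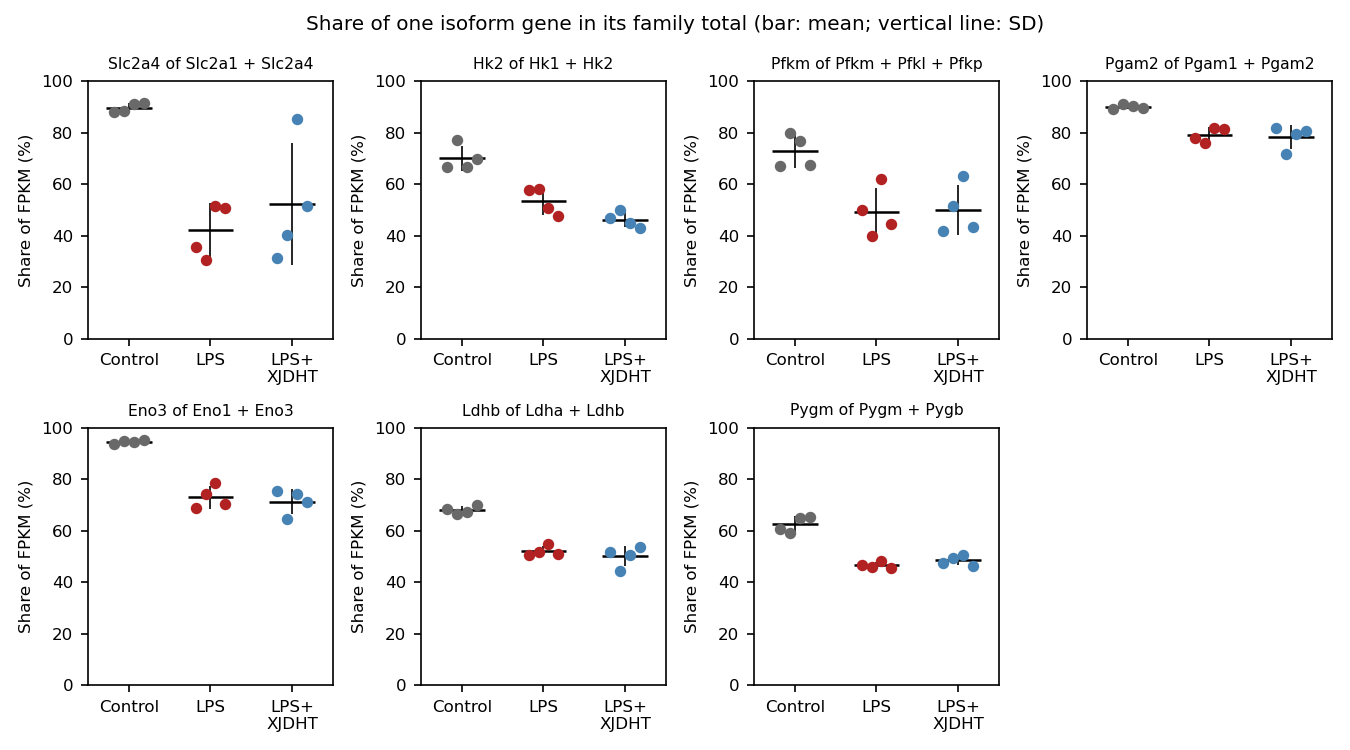
Share (%) of 1 gene in the summed FPKM of its family, per library (points, 4 per group), with mean (bar) and SD (line), for 7 families. Control points lie above all LPS points in each panel, and for Slc2a4 LPS+XJDHT 3, at 85.5%, lies nearest to Control.

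At the level of transcripts, 104 of the 39 genes' transcripts were tested, and in LPS 15 rose and 22 fell, where 25.6% of all 18635 transcripts changed, 17.3% upward and 8.26% downward. Of the 104, 61 had a mean of at least 5 FPKM in 1 group. Aldoa was not called as a gene, yet its minor coding transcripts Aldoa-202 and Aldoa-210 rose, from 8.99 ± 2.25 to 17.97 ± 1.95 FPKM (0.94 ± 0.17, adjusted p = 0.0026) and from 26.1 ± 3.63 to 41.2 ± 8.94 FPKM (0.62 ± 0.16, adjusted p = 0.016), beside Aldoa-201 at 810.1 ± 85.8 and 673 ± 106 FPKM, which did not pass (-0.28 ± 0.12, adjusted p = 0.12). Ldhb-204, a short coding transcript of Ldhb, fell from 32.1 ± 1.94 to 6.84 ± 1.27 FPKM (-2.09 ± 0.12, adjusted p = 1.9e-06). Transcripts of Ldha and Gyg alternated between libraries of the same group. Gyg-203 was at 0.141, 61.4, 3.92 and 1.61 FPKM in Control, 49.8, 0.200, 0.624 and 0.699 FPKM in LPS and 1.17, 4.996, 3.81 and 3.52 FPKM in LPS+XJDHT, and Gyg-204 was low where Gyg-203 was high, at 0 FPKM in Control 2 and 0.0160 FPKM in LPS 1. The files of the Control and LPS libraries hold 7 transcripts of these genes that are not listed for LPS+XJDHT, and the reverse is true of 6. None of these 13 had a group mean above 2.06 FPKM, and they were left out of the sums.

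Whether the decoction altered these genes in hearts exposed to lipopolysaccharide was read from LPS+XJDHT against LPS. By limma, 0 of the 39 genes passed in either direction, where 0.113% of all genes did, and 0 of the 39 had an unadjusted p under 0.05, against 4.80% of all genes. limma-voom on recovered fragments also called 0. The groups overlapped for all 39 genes, while 2.82% of all genes did not overlap. The median difference was 0.0013, beside 0.03 over all genes. Differences ranged from -0.40 for Slc2a1 to 0.99 for Mpc2. The smallest p was 0.13, for Eno3, with an adjusted p of 0.995.

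How far the data bound a difference varied between the genes. For 23 of the 39 the 95% interval lay within 0.5 of 0 on the log2 scale, and for 34 within 1. Among the genes most changed by LPS, LPS+XJDHT differed from LPS by -0.16 (95% interval -0.37 to 0.05) for Eno3, 0.0013 (95% interval -0.40 to 0.40) for Pfkfb3, 0.15 (95% interval -0.34 to 0.64) for Pfkfb2 and -0.03 (95% interval -0.83 to 0.77) for Ppp1r3c. The Pfkfb3 interval bounds only the summed level, without the transcripts listed for LPS+XJDHT alone. The coding Pfkfb3-206 had means of 2.39 FPKM in LPS and 9.84 FPKM in LPS+XJDHT, without overlap. The retained-intron Pfkfb3-219 moved the other way, from 10.5 to 5.15 FPKM, with overlap. Neither transcript passed after adjustment. Pdk4 differed by -0.20 (95% interval -0.76 to 0.36) and Pfkm by 0.10 (95% interval -0.51 to 0.72). Of the glucose transporters, Slc2a1 differed by -0.40 (95% interval -1.21 to 0.41) and Slc2a4 by 0.27 (95% interval -0.47 to 1.01), and in both LPS+XJDHT 3 was the library nearest to Control. Wide intervals remained for Mpc2 at 0.99 (95% interval -0.50 to 2.48) and Mpc1 at 0.49 (95% interval -1.10 to 2.07). The 5 smallest p also included Ldhb at -0.12 (95% interval -0.29 to 0.04), Pdp1 at 0.36 (95% interval -0.17 to 0.89) and Pfkl at 0.25 (95% interval -0.20 to 0.70). On simulated data for this comparison, 74 of 100 genes changed by 1 and 93 of 100 changed by 2 on the log2 scale were called. The changed genes were drawn from the better expressed ones. In the data only 13 of 11500 genes passed (0.113%), fewer than were changed in the simulation, so the adjustment was stricter there. The simulated rates can therefore overstate what this comparison could find. A p that misses the threshold does not show that the groups are alike. Of the 104 transcripts 0 passed, where 0.0966% of all transcripts did, and 6 had an unadjusted p under 0.05, against 4.89% of all.

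**Figure D5:**
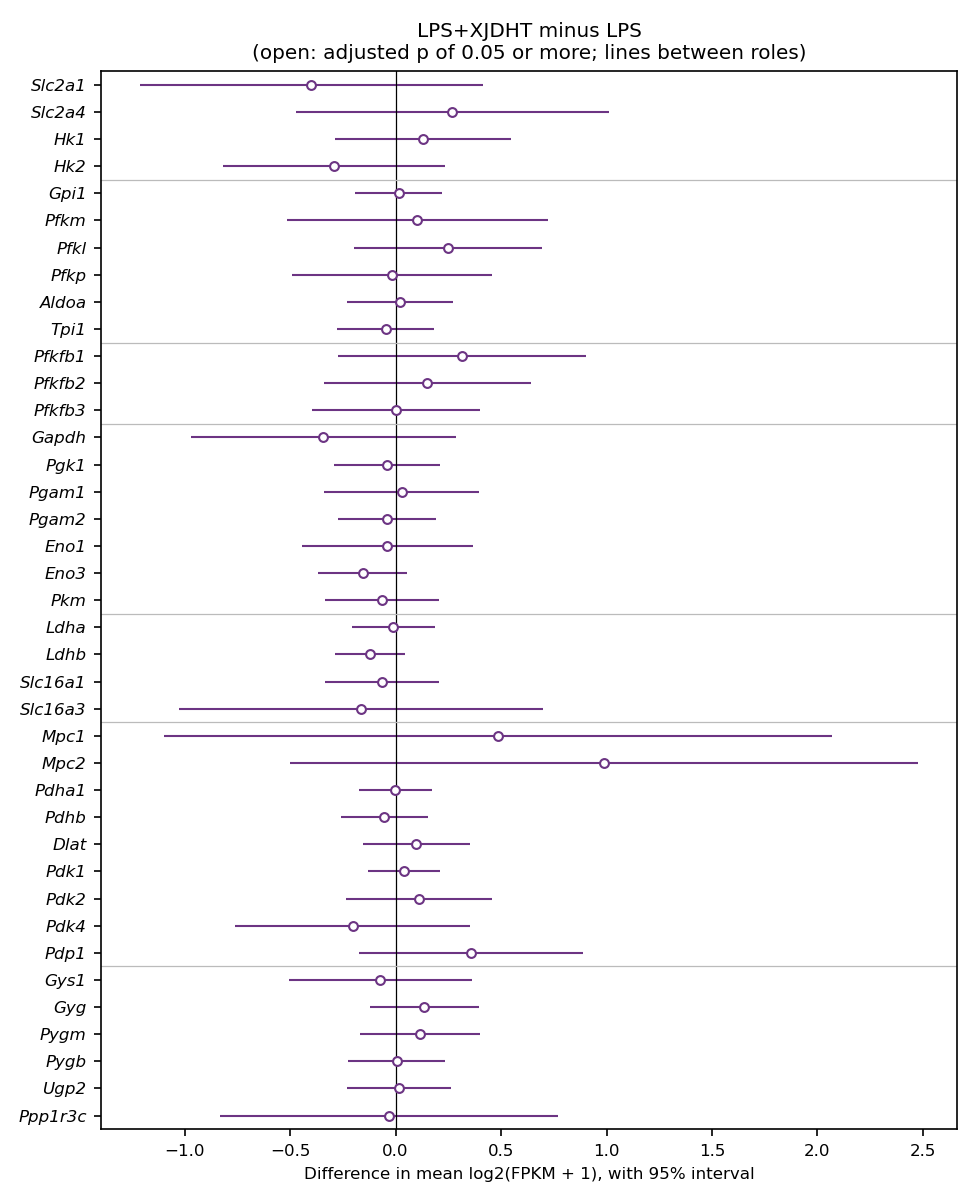
Difference of LPS+XJDHT from LPS in mean log2(FPKM + 1), with its 95% interval, for the 39 genes ordered by role. All points are open, since 0 passed an adjusted p of 0.05, and the intervals are widest for Mpc1 and Mpc2.

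Against the same Control libraries, 9 of the 39 genes were higher and 14 lower in LPS+XJDHT, where 39.2% of all genes changed, 28.5% upward and 10.7% downward. The median difference was -0.25, beside 0.19 over all genes, and the groups did not overlap for 24 genes, against 42.1% of all. Median-ratio scaling gave 5 higher and 20 lower. As the comparison shares its Control with that of LPS, values are only set side by side. The largest differences were -3.10 ± 0.37, adjusted p = 7.4e-05 for Ppp1r3c, 2.26 ± 0.18, adjusted p = 4.8e-06 for Pfkfb3 and -1.79 ± 0.22, adjusted p = 1.1e-04 for Pfkfb2. They stand beside -3.07, 2.26 and -1.94 in LPS. Eno3 was 2.88-fold lower than in Control (-1.52 ± 0.10, adjusted p = 9.2e-07) and Ldhb 1.88-fold lower (-0.91 ± 0.07, adjusted p = 5.6e-06). Eno1 was 2.50-fold higher (1.27 ± 0.19, adjusted p = 3.0e-04) and Pdk4 2.14-fold higher (1.03 ± 0.25, adjusted p = 0.0076).

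Of the genes that passed, 20 did so against Control in both treated groups. Mpc2 (-0.91 ± 0.68, adjusted p = 0.32) and Pdk2 (-0.34 ± 0.16, adjusted p = 0.11) passed in LPS alone, and Gpi1 (0.26 ± 0.09, adjusted p = 0.046), Pgam1 (0.47 ± 0.17, adjusted p = 0.045) and Gys1 (-0.55 ± 0.20, adjusted p = 0.045) in LPS+XJDHT alone, with no difference between the treated groups that passed for any of them. The 5 adjusted p lay between 0.042 and 0.046. Without LPS 2, Mpc2 (adjusted p = 0.014) and Pdk2 (adjusted p = 0.011) passed in LPS+XJDHT too. Gpi1 lost its call in 11 of 23 alternative settings, Gys1 in 9 and Pgam1 in 13, and each of these included leaving out Control 1, Control 2 or Control 3. With median-ratio scaling the difference was 0.015 for Gpi1 (adjusted p = 0.90) and 0.23 for Pgam1 (adjusted p = 0.32). Pgam1 rested in part on LPS+XJDHT 2, at 73.3 FPKM against 39.4 to 42.7 FPKM in the other 3 libraries, without which its difference was 0.26. Gys1 rested in part on LPS+XJDHT 4, at 13.1 FPKM, without which its difference was -0.36 (adjusted p = 0.11). Pgk1 (0.39 ± 0.12, adjusted p = 0.021) lost its call with median-ratio scaling, at 0.14 (adjusted p = 0.40), without mitochondrial and haemoglobin genes, at 0.30 (adjusted p = 0.065), and without LPS+XJDHT 1, at 0.36 (adjusted p = 0.053). Slc2a1 (1.17 ± 0.37, adjusted p = 0.026) lost its call when any 1 of Control 1, Control 2, Control 4, LPS+XJDHT 1, LPS+XJDHT 2 or LPS+XJDHT 4 was left out, at adjusted p up to 0.075. With median-ratio scaling Slc2a1 lost it too, at 0.96 (adjusted p = 0.065). Slc16a3 (1.46, adjusted p = 0.012) lost its call by limma-voom on recovered fragments, at 1.69 (adjusted p = 0.073). Without LPS+XJDHT 2, the library that stands apart in Y-linked RNA, 7 genes were higher and 15 lower than Control, and 0 passed against LPS. Hk2 then passed, at -0.83 (adjusted p = 0.0077), in place of -0.60 (adjusted p = 0.07), as it did with median-ratio scaling, at -0.84 (adjusted p = 0.017).

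The neighbouring steps of glucose metabolism were read from 5 lists of further genes. In LPS, 46.2, 63.2, 47.1, 38.5 and 29.4% of their tested genes passed, in the order given below. Of all genes, 38.7% passed, 26.6% higher and 12.1% lower. Of 13 other glycolysis genes tested, 2 rose and 4 fell in LPS, with a median difference of -0.01. Fbp2, the muscle fructose bisphosphatase that runs opposite to phosphofructokinase, was at 15.5 ± 0.936 FPKM in Control, 26.9 ± 4.02 in LPS and 26.4 ± 2.10 in LPS+XJDHT (0.75 ± 0.11, adjusted p = 3.0e-04). Gpd1, glycerol phosphate dehydrogenase, was at 22.0 ± 2.29 FPKM in Control, 39.7 ± 10.6 in LPS and 46.3 ± 2.21 in LPS+XJDHT (0.79 ± 0.15, adjusted p = 0.0019).

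Of 19 other glycogen genes 6 rose and 6 fell (median 0.06). Ppp1r3a, which targets protein phosphatase 1 to glycogen in striated muscle as Ppp1r3c does, was at 24.0 ± 2.70 FPKM in Control, 71.0 ± 16.1 in LPS and 75.3 ± 14.6 in LPS+XJDHT (1.50 ± 0.18, adjusted p = 8.9e-05), opposite in direction to Ppp1r3c. Phkg1, the catalytic subunit of muscle phosphorylase kinase, which activates Pygm, was at 7.77 ± 0.863 FPKM in Control, 1.78 ± 0.942 in LPS and 2.001 ± 0.803 in LPS+XJDHT (-1.73 ± 0.27, adjusted p = 4.5e-04). Pgm2, a phosphoglucomutase, was at 2.62 ± 0.460 FPKM in Control, 5.59 ± 1.70 in LPS and 5.23 ± 0.542 in LPS+XJDHT (0.84 ± 0.17, adjusted p = 0.0026).

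Of 17 other pyruvate genes 5 rose and 3 fell (median -0.08). Pcx, pyruvate carboxylase, was at 4.72 ± 0.802 FPKM in Control, 9.70 ± 3.15 in LPS and 9.94 ± 2.21 in LPS+XJDHT (0.87 ± 0.21, adjusted p = 0.0074), and Me1, the cytosolic malic enzyme, at 34.1 ± 2.19 FPKM in Control, 49.97 ± 2.87 in LPS and 53.1 ± 4.03 in LPS+XJDHT (0.54 ± 0.08, adjusted p = 3.5e-04). Dld, the third enzyme of the pyruvate dehydrogenase complex beside Pdhb and Dlat, fell with them, at 165 ± 4.13 FPKM in Control, 121 ± 15.0 in LPS and 124 ± 11.8 in LPS+XJDHT (-0.45 ± 0.09, adjusted p = 0.003).

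Of 13 genes of the pentose phosphate and hexosamine pathways, which branch from glycolysis, 5 rose and 0 fell by limma (median 0.33). The share that passed, 38.5%, was near the 38.7% of all genes. An unadjusted p under 0.05 was found for 7 of them and for 47.6% of all genes. G6pdx, the entry enzyme of the pentose phosphate pathway, was at 3.13 ± 0.566 FPKM in Control, 8.89 ± 1.39 in LPS and 7.86 ± 3.15 in LPS+XJDHT (1.26 ± 0.26, adjusted p = 0.0029). Tkt, transketolase, was at 8.08 ± 1.40 FPKM in Control, 16.1 ± 2.88 in LPS and 15.8 ± 1.94 in LPS+XJDHT (0.91 ± 0.15, adjusted p = 6.7e-04), and H6pd, the counterpart of G6pdx in the endoplasmic reticulum, at 8.05 ± 0.707 FPKM in Control, 16.1 ± 3.22 in LPS and 19.2 ± 2.36 in LPS+XJDHT (0.90 ± 0.14, adjusted p = 4.8e-04).

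Of 17 regulators of glucose metabolism 4 rose and 1 fell (median 0.20). Hif1a, an oxygen-regulated transcription factor, was at 14.1 ± 1.34 FPKM in Control, 54.7 ± 19.7 in LPS and 52.3 ± 5.16 in LPS+XJDHT (1.82 ± 0.20, adjusted p = 4.2e-05). Myc was at 1.37 ± 0.493 FPKM in Control, 9.27 ± 4.94 in LPS and 7.75 ± 1.43 in LPS+XJDHT (2.03 ± 0.28, adjusted p = 2.1e-04), and Arrdc4, an arrestin that lowers glucose uptake, at 2.53 ± 1.43 FPKM in Control, 13.6 ± 3.64 in LPS and 9.001 ± 1.35 in LPS+XJDHT (2.15 ± 0.33, adjusted p = 4.0e-04). In LPS+XJDHT against LPS, 0 genes passed in any of these 5 lists by limma, with 0, 1, 1, 0 and 1 at an unadjusted p under 0.05 in the order given. Of all genes, 0.113% passed and 4.80% had such an unadjusted p. Against Control, 2, 7, 4, 5 and 5 of them were higher and 2, 4, 3, 1 and 2 lower in LPS+XJDHT. Of all genes, 28.5% were higher and 10.7% lower in that comparison.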

How the data were processed

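Ribosome-depleted total RNA of mouse hearts was sequenced in 12 libraries, 4 a group. The deposited values are FPKM per transcript; the header names no unit, and it was read from the values, which are whole fragments per length and depth for 98.4 to 98.7% of values (tolerance 0.1 fragments), from which 73.8 to 77.8 M fragments a library were recovered. The tools with which the authors aligned and counted were not given in the sources used here; mm10 and limma are named, without a role, per the submitters' processing notes. Transcripts listed in every file (33137) were matched to the GENCODE annotation (24712) and summed per gene; transcripts without an Ensembl identifier, 6.45 to 8.01% of FPKM, and 55 Ensembl transcripts not in that annotation were left out. The 11500 genes that reached 1 FPKM in 4 or more libraries entered 1 limma 3.58.1 fit (R 4.3.3; empirical Bayes with trend) of log2(FPKM + 1) over the 3 groups, two-sided, with Benjamini-Hochberg adjustment. Sums and shares were made with pandas 2.3.3 and NumPy 2.4.6, plots with matplotlib 3.10.9, under Python 3.11.15.

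On simulated data of 11500 genes, the LPS against Control comparison recovered 85 of 100 genes changed by 1 and 91 of 100 changed by 2 on the log2 scale, with 8 false calls. The changed genes were drawn from the better expressed ones. The genes, lists and tests were chosen with earlier results of these data known. Values per library are given for genes that passed in LPS with a log2 difference of at least 0.5 and for the most abundant gene of each role; the further lists name up to 3 genes that passed with the largest difference, and transcripts are named from a group mean of 5 FPKM. Alternatives were limma-voom on the recovered fragments, other filters and pseudocounts, sample weights, scaling by median ratios, compared groups alone, sums without mitochondrial and haemoglobin genes, protein-coding transcripts only (chosen after seeing the data) and leaving out each library.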

Additional observations from a re-analysis of the deposited data

Results flagged for a closer look

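In groups of 4 libraries, a library was singled out where its gap to the nearest of the others was too large a part of the group's range by Dixon's criterion. Of 117 groups (39 genes in 3 groups) 7 were so marked, and chance marks about 1 in 20 groups. LPS+XJDHT 2, the library that stands apart in Y-linked RNA, held 2 of them: Pgam1 at 73.3 FPKM, where the others were at 39.4 to 42.7 FPKM, and Gpi1 at 166.6 FPKM, where the others were at 154 to 156 FPKM. Control 2 held 2, with Slc16a3 at 2.55 FPKM above 0.675 to 0.898 FPKM and Pdha1 at 369 FPKM below 398 to 402 FPKM. Gpi1 in LPS 2 was at 127 FPKM, while the other LPS libraries lay close together at 167.04 to 167.5 FPKM, and Gpi1 passed in LPS without this library. Gyg in LPS+XJDHT 1 was at 44.2 FPKM below 49.9 to 50.8 FPKM. Pgk1 in Control 4 was at 162 FPKM below 164.9 to 165 FPKM, a gap of little size in a group with a narrow range.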

How the results depend on the processing

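Of the 22 genes called in LPS, 16 were called in all 23 alternatives, and of the 23 called in LPS+XJDHT against Control, 17 were. In LPS+XJDHT against LPS, 0 genes were called in any alternative. Median-ratio scaling gave 5 genes higher in place of 9 in LPS+XJDHT against Control, and reversed values, none called before, for Gapdh (-0.065) and Ldha (-0.0078) in LPS and for Pdk1 (-0.22, adjusted p = 0.027), Pkm (-0.090), Pdp1 (-0.11) and Ldha (-0.062) in LPS+XJDHT. Sample weights reversed Pygb (0.033 in LPS, 0.0029 in LPS+XJDHT), and leaving out mitochondrial and haemoglobin genes reversed Pdk1 in LPS+XJDHT (-0.063). With 1 library left out, sign also changed in LPS for Pdk1 (-0.061 to 0.0193, positive without Control 3 or LPS 2), Pygb (-0.088 to 0.092, positive without LPS 2) and Gapdh (-0.026 to 0.27, negative without Control 2), and in LPS+XJDHT for Pdk1 (-0.0088 to 0.060) and Gyg (-0.14 to 0.026), both without Control 2, and Pygb (-0.059 to 0.024, positive without LPS+XJDHT 2). The cause was not tested. With each library left out in turn, 7 to 9 genes were higher and 12 to 16 lower in LPS, 6 to 8 higher and 13 to 16 lower in LPS+XJDHT, and 13 to 16 transcripts higher and 16 to 22 lower in LPS. The Pkm M1 share then differed by -16.9 to -8.80, -24.7 to -20.6 and, between treated groups, -14.2 to -6.03 points. The LPS difference in isozyme share ranged from -50.9 to -43.9 points for Slc2a4, -18.1 to -14.3 for Hk2, -28.0 to -20.6 for Pfkm, -11.7 to -9.73 for Pgam2, -23.6 to -20.3 for Eno3, -17.1 to -15.6 for Ldhb and -17.1 to -15.0 for Pygm. No paired analysis was possible because the labels give each library a number that no groups share; replicates 1 to 4 are names given here and pair no libraries. Depth was similar in all libraries, and precision for genes at a few FPKM is limited by 4 libraries a group.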
